A study of Rattus norvegicus with 48 samples.

Results

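Tat-Cocaine-Tazemetostat cultures were compared with Tat-Cocaine cultures, which by the labels did not receive tazemetostat. The comparison rested on 6 of the 48 samples of the series, 3 in each group, and covered every gene that passed the filter on low values (15890 of 30211 genes). Groups were taken from the labels of the samples. The values are the CPM of the deposited table, read counts scaled by TMM-normalized library sizes.

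Each sample was a library of polyadenylated RNA from a primary rat cortical culture. The cells came from 18-day-old Sprague-Dawley fetuses and were used after 21 days in vitro. Tat-Cocaine cultures received the HIV-1 protein Tat (residues 1-86, 6 ng/mL) for 48 h, followed by cocaine (25 µM) for 24 h. Tat-Cocaine-Tazemetostat cultures received the same Tat and cocaine together with tazemetostat (3 µM), which the protocol places in the 48-h step. For comparison, Control cultures received none of these agents, Tazemetostat cultures 3 µM of the compound, Tat cultures 6 ng/mL of the protein, and Tat-Tazemetostat cultures both at these doses. Each group had 3 libraries, and each agent was given at 1 dose. The labels do not say whether the 3 libraries of a group came from separate dissections, so that p-values measure the spread between these samples, which may in part be technical. The solvent that the Control and Tat-Cocaine cultures received is not stated in the labels. Nor do the labels say whether cultures without cocaine were kept for the additional 24 h.

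Tazemetostat is an inhibitor of EZH2, the catalytic subunit of Polycomb repressive complex 2 (PRC2). PRC2 places methyl groups on lysine 27 of histone H3, a mark of silent genes, and needs its subunits EED and SUZ12 to do so. The mark is read by Polycomb repressive complex 1 (PRC1) and removed by the demethylases KDM6A and KDM6B. Known targets of PRC2 include the Hox genes, other regulators of development and the cell cycle inhibitor Cdkn2a. In neurons PRC2 is known to keep genes of other lineages silent. The compound blocks the enzyme and not its transcript, and the histone mark itself was not measured in these samples.

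The commonest value above 0 in each library was taken as 1 read. On that basis the 6 libraries held 20.2 to 25.0 M reads on genes (M, 1e6 reads), and 0.5 CPM stood for 9.81 to 12.4 reads. The Tat-Cocaine libraries were not alike. On the first principal component of 18 libraries in 6 groups (57.3% of the variance), Tat-Cocaine replicates 1, 2 and 3 stood at -21.8, -5.74 and 21.5, and on the second (18.9%) at 36.5, 37.8 and 11.1. Replicate 3 of this group lay beside replicate 1 of Tat (21.7 and 9.49). The Tat-Cocaine-Tazemetostat libraries stood at 46.4, 65.0 and 38.3 on the first component, next to replicate 2 of Tat-Tazemetostat (57.7). Pearson correlations between libraries of 1 group, over genes on the log2 scale, were 0.977 to 0.991 in Tat-Cocaine and 0.988 to 0.996 in Tat-Cocaine-Tazemetostat.

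**Figure D1:**
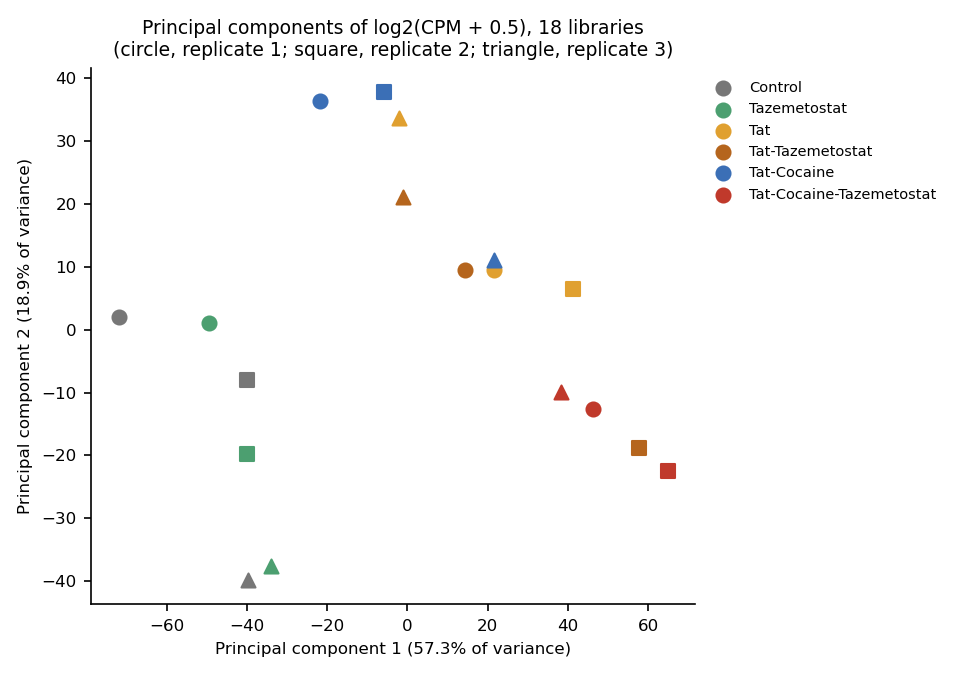
Principal components 1 and 2 of log2(CPM + 0.5) in 18 libraries, with 1 colour per group and 1 symbol per replicate. The 3 Tat-Cocaine-Tazemetostat libraries lie together at 38.3 to 65.0 on the first component, and Tat-Cocaine replicate 3 lies apart from replicates 1 and 2.

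The labels call the cells neurons, but markers of several cell types were found in every library. The summed level of 16 neuronal markers was 2467 to 3035 CPM in Tat-Cocaine libraries, that of 15 astrocyte markers 9959 to 11839 CPM, of 12 myeloid markers 1573 to 3972 CPM and of 11 oligodendrocyte markers 486 to 2309 CPM. In a mixed culture, fewer cells of a type and less RNA per cell cannot be told apart.

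Genes were tested with limma on log2(CPM + 0.5), a scale that understates the change of genes with few reads, and a gene was called when its Benjamini-Hochberg FDR was under 0.05. Fold changes are log2 fold changes on this scale, given with the standard error (SE) where an error follows. With tazemetostat, 4554 of 15890 genes were called (28.7%), 2423 of them higher (15.2% of those tested) and 2131 lower (13.4%), and 6816 genes had an unadjusted p under 0.05. Of the called genes 1219 changed at least 2-fold, 655 upwards and 564 downwards. The 3 libraries of the groups did not overlap for 7584 genes (47.7% of those tested). The median log2 fold change over all genes was 0.02. When the libraries were scaled to the same sum, 1618 genes were higher and 2812 lower.

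The number of called genes depended on single libraries. It was 262 with Tat-Cocaine replicate 1 left out, 763 with Tat-Cocaine replicate 2 left out, and 174 with Tat-Cocaine-Tazemetostat replicate 2 left out. Leaving out Tat-Cocaine-Tazemetostat replicate 1 gave 2895 genes, its replicate 3 gave 4070, and Tat-Cocaine replicate 3 gave 5865. Of the 4554 called genes, those still tested in each of these 6 fits (4552 to 4554) kept the sign of their change, called or not. In all, 123 genes were called whichever library was left out, 61 of them higher and 62 lower.

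**Figure D2:**
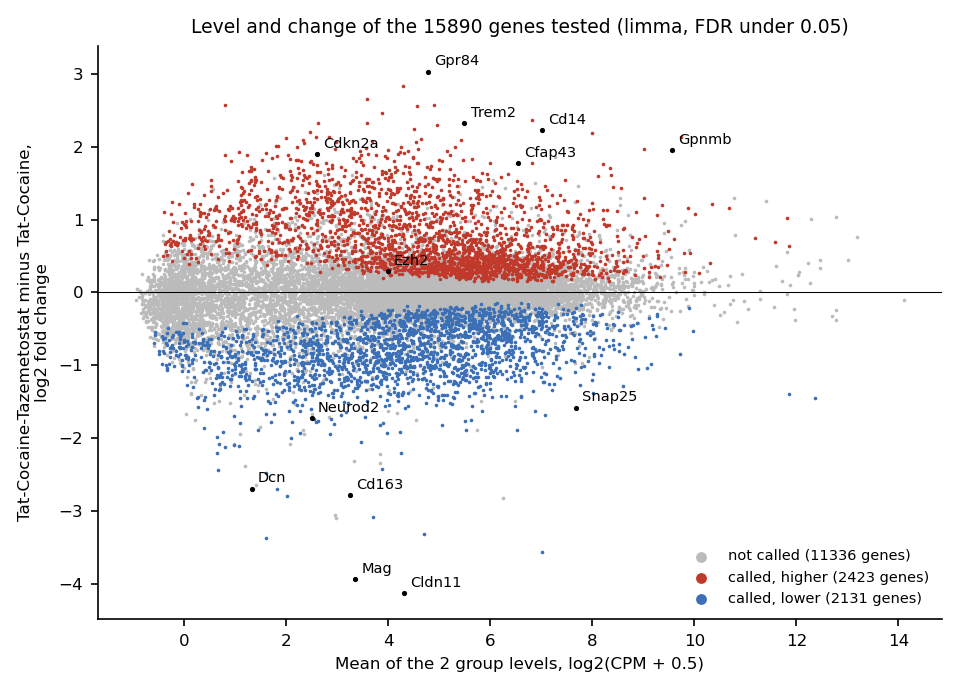
Mean level of the 2 groups, log2(CPM + 0.5), on the horizontal axis and the log2 fold change of Tat-Cocaine-Tazemetostat over Tat-Cocaine on the vertical axis, 1 point per gene (15890 genes). Coloured points are the 2423 genes called higher and the 2131 called lower, and some of the genes named in the text are labelled.

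Transcripts of the PRC2 core did not pass the test. Limma called 0 of its 6 genes (1 had an unadjusted p under 0.05), and their median log2 fold change was 0.04, against 0.02 over all genes. Ezh2 was at 12.3, 13.9 and 15.02 CPM in Tat-Cocaine libraries and at 15.6, 20.3 and 15.3 CPM with tazemetostat. Its log2 fold change was 0.30 ± 0.21 (SE, FDR = 0.29), with a 95% interval of -0.14 to 0.73, and the libraries of the groups did not overlap. Ezh1, which can replace Ezh2 in the complex, stood at 46.4 ± 0.140 CPM (SD, n = 3) and 44.2 ± 2.96 CPM. The log2 fold changes of Eed and Suz12, the subunits the enzyme needs, were 0.09 (FDR = 0.50) and 0.16 (FDR = 0.10).

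Other Polycomb genes are given here beside the share called over all genes, 28.7% (15.2% higher and 13.4% lower). Of 6 accessory genes of PRC2, 1 rose and 1 fell. Jarid2, which helps to bring PRC2 to DNA, fell from 27.2, 25.6 and 24.4 CPM to 15.7, 18.7 and 19.8 CPM (log2 fold change -0.50 ± 0.13 (SE), FDR = 0.0091). Aebp2, another cofactor of the enzyme, rose from 16.9, 17.4 and 18.4 CPM to 24.9, 24.6 and 24.2 CPM (0.47 ± 0.13, FDR = 0.011). The libraries of the groups did not overlap for either gene. Among 18 PRC1 genes, Bmi1 rose (log2 fold change 0.36, FDR = 0.010), and Cbx6 and Rybp fell (-0.52 and -0.40, FDR = 0.023 and 0.027). The demethylases Kdm6a and Kdm6b, 2 of 2 tested, had log2 fold changes of 0.20 and -0.06 and were not called. With Tat-Cocaine replicate 1 left out, the FDR of Jarid2 was 0.063, that of Aebp2 0.066 and that of Bmi1 0.065, and no gene of these lists was called.

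Among 6 inhibitors of cyclin-dependent kinases, 2 rose and 2 fell, where 15.2% of all genes rose and 13.4% fell. Cdkn2a, which encodes p16 and p19ARF and is a known PRC2 target, was at 1.70, 1.47 and 5.31 CPM in Tat-Cocaine and at 9.66, 13.5 and 8.79 CPM in Tat-Cocaine-Tazemetostat libraries. It rose in all 3 libraries above the highest Tat-Cocaine library (log2 fold change 1.90 ± 0.46, FDR = 0.0074). With Tat only it was at 5.48, 7.45 and 2.51 CPM, and in Tat-Tazemetostat cultures at 4.39, 11.5 and 3.04 CPM, and these groups overlapped. Its neighbour Cdkn2b, the p15 gene, rose as well (log2 fold change 1.12, FDR = 0.013), from 9.54 ± 2.17 to 21.04 ± 2.45 CPM (SD, n = 3). Cdkn1c, the imprinted p57 gene, fell from 22.9, 20.96 and 3.26 CPM to 2.85, 2.55 and 2.77 CPM (log2 fold change -1.94 ± 0.69, FDR = 0.035), and Tat-Cocaine replicate 3 was close to those with tazemetostat. Cdkn1b, the p27 gene, fell by 0.29 on the log2 scale (FDR = 0.047). With Tat-Cocaine replicate 1 left out the FDR of Cdkn2a was 0.059, without Tat-Cocaine replicate 2 it was 0.053, and no gene of the list was called in these fits.

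The Hox genes, known silent targets of PRC2, were at or near 0 in both groups. All 37 Hox genes of the table failed the filter, and their summed level was 0.0403 to 0.213 CPM in Tat-Cocaine and 0 to 0.0510 CPM in Tat-Cocaine-Tazemetostat libraries, where 36 to 37 of the 37 were at 0. A count of 0 allows up to 3 reads, or 0.121 to 0.153 CPM in these libraries, so that smaller levels of a gene were not detectable (counting error only). Another 63 regulators of development were in the table, of which 20 were tested, and only En2, a homeobox gene of the midbrain and hindbrain, was called (2.21, 2.29 and 2.46 CPM against 4.16, 4.99 and 3.24 CPM, log2 fold change 0.70 ± 0.21, FDR = 0.016). En2 was not called when replicate 1 or 2 of Tat-Cocaine was dropped (FDR = 0.079 and 0.060), nor when replicate 2 of Tat-Cocaine-Tazemetostat was (0.11). The median of these 20 genes was -0.01, and 6 of the 20 had an unadjusted p under 0.05. Over all tested genes 28.7% were called by limma and 42.9% had such a p. In Tazemetostat cultures the Hox genes summed to 0.195 to 0.359 CPM, with 32 to 33 of the 37 at 0 per library. In Control cultures they summed to 0.0908 to 0.153 CPM, with 35 of the 37 at 0. In the libraries of these groups 1 read stood for 0.0378 to 0.0490 CPM, so that these sums rest on few reads.

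Genes of microglia and other myeloid cells were higher with tazemetostat. Of 12 homeostatic microglia genes 6 rose and 0 fell (median log2 fold change 1.12), of 12 general myeloid genes 7 rose and 0 fell (1.19), and of 11 genes of disease-associated microglia 4 rose and 0 fell (0.92). Over all genes 15.2% were called higher and 13.4% lower. The summed level of the myeloid genes was 2086, 1573 and 3972 CPM in the Tat-Cocaine libraries and 5119, 7502 and 4315 CPM in the Tat-Cocaine-Tazemetostat libraries, and the groups did not overlap. The homeostatic genes summed to 728, 462 and 799 CPM and 1198, 1547 and 1088 CPM, again without overlap. No member of these 3 lists was at 0 in any of the 6 libraries. The myeloid sum was 4166, 5724 and 2537 CPM in Tat and 2717, 7362 and 3005 CPM in Tat-Tazemetostat libraries. Both overlapped the Tat-Cocaine and the Tat-Cocaine-Tazemetostat libraries. The homeostatic sum in Tat libraries was 762, 1040 and 673 CPM, below all Tat-Cocaine-Tazemetostat libraries. In Tat-Tazemetostat libraries it was 751, 1606 and 865 CPM, which overlapped them.

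Trem2, a lipid receptor of microglia, was at 17.6, 9.50 and 34.7 CPM without and 76.4, 127 and 81.6 CPM with tazemetostat (log2 fold change 2.33 ± 0.51, FDR = 0.0058). Gpnmb, a glycoprotein of lysosomes and phagocytes, was at 338, 248 and 591 CPM and 1247, 1426 and 1633 CPM (1.96 ± 0.32, FDR = 0.0010). Both genes were higher in every tazemetostat library than in any Tat-Cocaine library. Lgals3, which encodes galectin-3, rose by 0.92 on the log2 scale (FDR = 0.0058), and Lpl, lipoprotein lipase, by 1.06 (FDR = 0.012). Among general myeloid genes, the lipopolysaccharide co-receptor Cd14 rose from 20.4, 39.7 and 146 CPM to 219.8, 309 and 187 CPM (2.23 ± 0.64, FDR = 0.014). Cybb, the NADPH oxidase subunit of phagocytes, Spi1, which encodes the myeloid transcription factor PU.1, and Fcer1g, an adaptor of Fc receptors, rose by 1.43, 1.32 and 1.14 (FDR = 0.014, 0.019 and 0.030). Of the homeostatic genes, Tgfbr1, P2ry13 and P2ry12 rose by 1.30, 1.54 and 1.66.

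These calls held to different degrees. Gpnmb and Lgals3 were called whichever library was left out, with FDR of at most 0.023 and 0.046. Trem2 lost its call only without Tat-Cocaine-Tazemetostat replicate 2 (FDR = 0.053). Laptm5, another called myeloid gene, lost its call without Tat-Cocaine replicate 1 (0.084) or 2 (0.18). It also lost its call without Tat-Cocaine-Tazemetostat replicate 1 (0.061) or 2 (0.14). Cd14 lost it without Tat-Cocaine replicate 1 (0.12), without replicate 2 (0.063) and without Tat-Cocaine-Tazemetostat replicate 2 (0.081). In each of these 3 fits 0 of 12 homeostatic and 0 of 12 myeloid genes were called by limma, and 3, 4 and 2 of the 11 disease-associated genes. Without Tat-Cocaine replicate 3, the library that lay apart, the counts were 6, 8 and 4.

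Sequences before the start of 3 of these genes are shown because they hold GAGGAAG, the core that PU.1 is known to bind. They are the 250 bases before the start in RefSeq (GRCr8, a build that the study's sources do not name), 5′ to 3′ on the strand of the gene, with the match on either strand in capitals. In Trem2 (minus strand, chr9:20151780-20152029) the match begins 30 bases before the start, in Gpnmb (plus strand, chr4:79340878-79341127) 181 bases and in Laptm5 (plus strand, chr5:148371630-148371879), a lysosomal protein of blood cells, 64 bases.
Trem2: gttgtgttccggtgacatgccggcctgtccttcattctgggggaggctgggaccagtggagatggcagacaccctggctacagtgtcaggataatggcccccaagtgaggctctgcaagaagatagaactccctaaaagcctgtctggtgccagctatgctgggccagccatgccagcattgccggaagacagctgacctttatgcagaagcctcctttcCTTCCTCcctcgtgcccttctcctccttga
Gpnmb: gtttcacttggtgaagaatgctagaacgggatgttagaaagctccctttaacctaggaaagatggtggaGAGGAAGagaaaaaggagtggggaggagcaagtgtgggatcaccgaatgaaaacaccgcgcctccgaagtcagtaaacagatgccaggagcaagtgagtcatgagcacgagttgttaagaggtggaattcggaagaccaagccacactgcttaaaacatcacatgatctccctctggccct
Laptm5: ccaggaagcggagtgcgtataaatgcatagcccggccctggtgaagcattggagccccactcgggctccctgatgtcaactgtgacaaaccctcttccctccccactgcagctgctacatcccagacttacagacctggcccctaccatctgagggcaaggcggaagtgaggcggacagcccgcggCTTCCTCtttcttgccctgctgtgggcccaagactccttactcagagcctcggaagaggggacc
Of the 17 called genes of the 3 lists 10 had an entry in the table, and 5 of the 10 held the 7 bases, as did 10.1% of all 27457 such stretches. Of the 11225 tested genes with an entry 10.9% held it, as did 16.7% of 449 genes called at least 2-fold higher and 11.6% of 389 called at least 2-fold lower. As only 70.6% of the tested genes had an entry, these shares are given without a test and nothing is read from their difference. The string was chosen after 9 had been looked at and the results were known, and a match is not a binding site.

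Macrophages of the brain borders gave a mixed picture. Of 7 markers 2 rose and 2 fell, where 15.2% of all genes rose and 13.4% fell. Pf4 and Stab1 rose by 1.26 and 1.45 on the log2 scale (FDR = 0.014 and 0.022). The scavenger receptor Cd163 fell from 16.6, 19.9 and 25.5 CPM to 2.80, 0.510 and 7.85 CPM (-2.78 ± 0.62, FDR = 0.0061), and the coagulation factor gene F13a1 from 21.8, 3.11 and 6.88 CPM to 0.193, 0.255 and 0.517 CPM (-3.37 ± 1.00, FDR = 0.016). In Tat cultures Cd163 was at 8.11, 2.21 and 11.5 CPM and F13a1 at 0.760, 0.230 and 7.75 CPM, levels that overlapped those with tazemetostat. Without Tat-Cocaine-Tazemetostat replicate 2 the FDR was 0.069 for Cd163 and 0.075 for F13a1, and 0 of the 7 markers were called by limma.

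**Figure D3:**
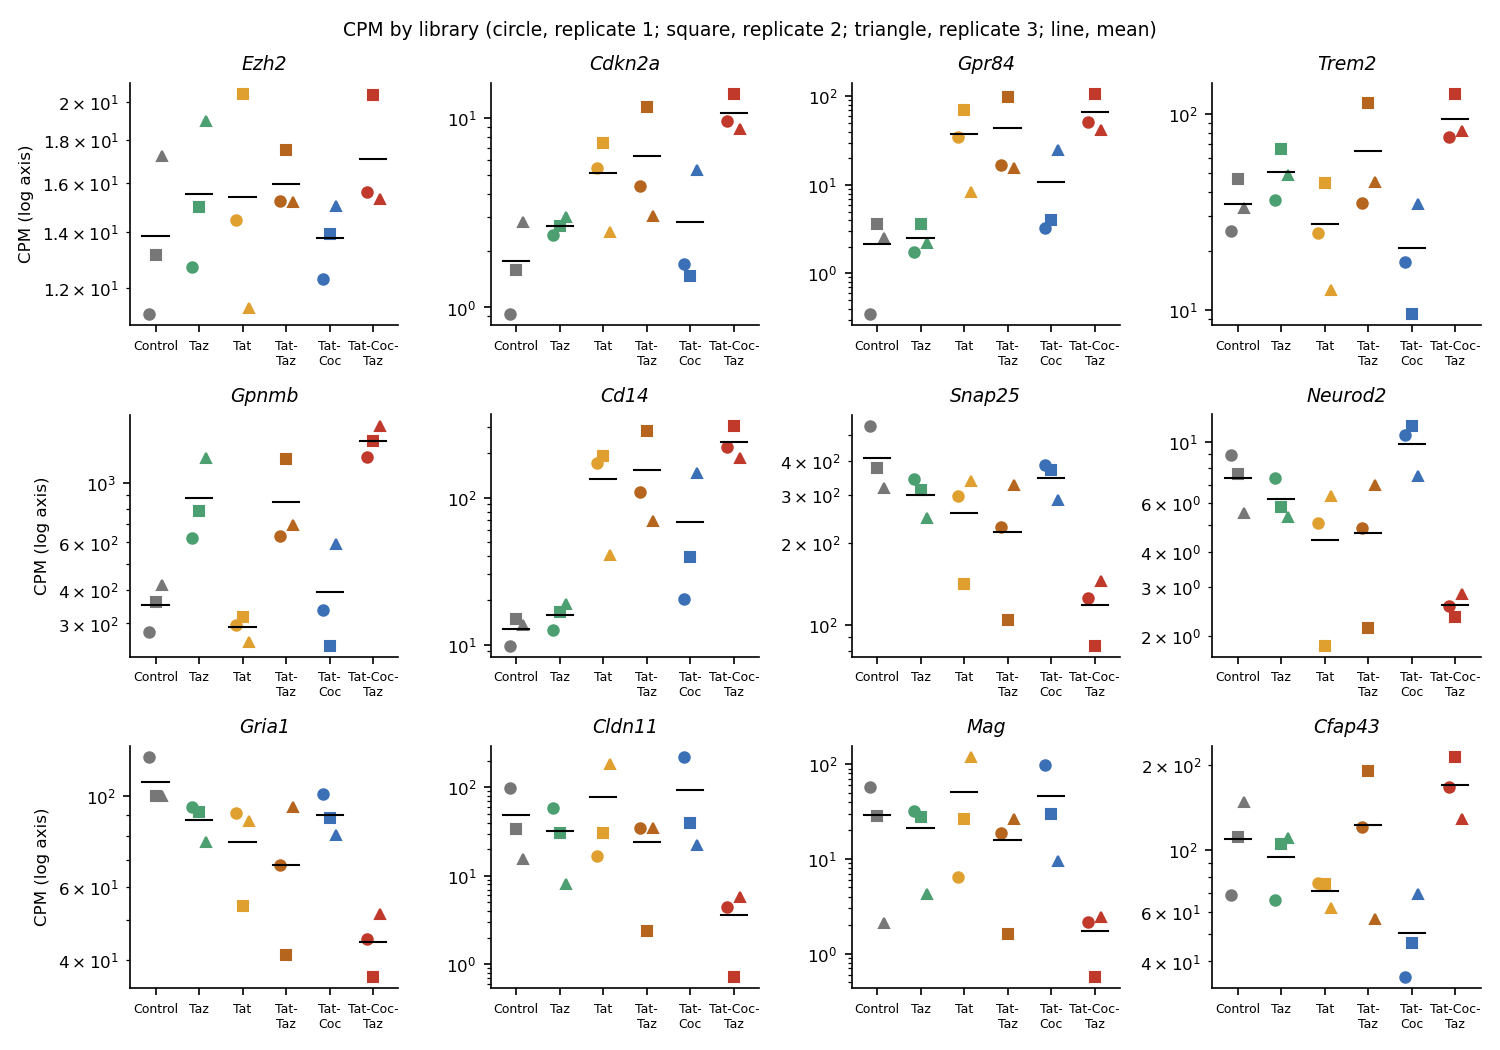
CPM of 12 genes in each library of 6 groups on logarithmic axes, 1 symbol per replicate, with the group mean as a line. Gpnmb, Trem2 and Cdkn2a lie higher and Snap25, Gria1, Cldn11 and Mag lower in all 3 Tat-Cocaine-Tazemetostat libraries than in any Tat-Cocaine library, while for several genes the Tat libraries spread over both.

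The 10 largest rises, taken among called genes with at least 1 CPM and no overlap, were led by Gpr84, a receptor for medium-chain fatty acids on activated myeloid cells. It was at 3.28, 3.97 and 24.9 CPM in Tat-Cocaine and at 52.1, 107 and 41.2 CPM in Tat-Cocaine-Tazemetostat libraries (3.03 ± 0.85, FDR = 0.013). Acod1, whose enzyme makes itaconate, was at 1.66, 10.8 and 28.99 CPM and 39.8, 113 and 32.3 CPM (2.57 ± 0.82, FDR = 0.023). For both genes Tat-Cocaine replicate 3 lay far above replicate 1. Il17rb, a receptor of interleukin-25, and Cyp4b1, a cytochrome P450, rose by 2.56 and 2.47 (FDR = 0.018 and 0.016). Trem2 and the rows named RGD1560281, AC114233.2, AABR07012302.1, RGD1566006 and AABR07035722.1 completed the 10, with rises of 2.32 to 2.84 on the log2 scale. In Tat cultures, which had received neither cocaine nor tazemetostat, Gpr84 was at 34.9, 70.6 and 8.41 CPM and Acod1 at 47.5, 92.2 and 8.75 CPM, which overlapped the Tat-Cocaine-Tazemetostat libraries. The FDR without Tat-Cocaine replicate 1 was 0.090 for Gpr84 and 0.22 for Acod1.

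Cytokine and NF-kB genes were called in shares near or below those of all genes, of which 15.2% rose and 13.4% fell. Of 30 cytokine and chemokine genes 5 rose and 0 fell (median 0.26), namely Osm (log2 fold change 1.18, FDR = 0.011), Il1a (1.46, 0.012), Ccl3 (1.73, 0.018), Cxcl13 (1.59, 0.027) and Cxcl6 (2.36, 0.039). Il1a, an alarm cytokine, was at 2.51, 10.03 and 8.82 CPM and 15.1, 21.4 and 17.7 CPM. The B cell chemokine Cxcl13 was at 51.6, 18.8 and 57.4 CPM and 137, 180.4 and 63.1 CPM, so that replicate 3 with tazemetostat stood just above the highest library without. Cxcl6, a neutrophil chemokine, was at 5.07, 25.9 and 204 CPM and 169, 136 and 177 CPM, and these groups overlapped. Of 17 NF-kB subunits and targets 2 rose, the subunit genes Nfkb1 (0.67, FDR = 0.022) and Rela (0.45, FDR = 0.033). Of 9 acute-phase and defence genes 4 rose (median 1.02), Orm1, Acod1, Hp and Cp, and for Orm1, Hp and Cp the groups overlapped. Orm1, an acute-phase glycoprotein, ran from 53.9, 235 and 678 CPM to 853, 1029 and 593 CPM (1.97 ± 0.62, FDR = 0.022).

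Of 16 complement genes 5 rose and 0 fell (median 0.96), and each of the 16 fold changes was above 0. Among all genes 15.2% were called higher and 52.0% had a fold change above 0. C1qb, a chain of the first component, was at 518, 300.4 and 469 CPM and 842, 1071 and 745 CPM (1.07 ± 0.39, FDR = 0.040). The regulator Cfi and the anaphylatoxin receptors C3ar1 and C5ar1 rose by 1.59, 1.20 and 1.22 (FDR = 0.012, 0.043 and 0.043), and the libraries overlapped for Cfi. The myeloid markers moved with these genes, 1573 to 3972 CPM in sum without and 4315 to 7502 CPM with tazemetostat, with 7 of 12 called and 0 of 12 at 0 in these libraries. Their part in the values of the inflammatory genes was not tested. With either Tat-Cocaine replicate 1 or Tat-Cocaine-Tazemetostat replicate 2 left out, 0 genes of the cytokine, NF-kB, acute-phase and complement lists were called by limma. The complement sum was 26285, 28607 and 18780 CPM in Tat libraries, which had received no tazemetostat. It was 11080, 13652 and 23688 CPM in Tat-Cocaine and 28300, 28905 and 25312 CPM in Tat-Cocaine-Tazemetostat libraries. For the complement, cytokine, NF-kB and acute-phase sums the Tat libraries overlapped the Tat-Cocaine-Tazemetostat libraries.

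Antigen presentation and the interferon response did not pass the test. Limma called 0 of 13 MHC class I genes (1 with an unadjusted p under 0.05), 0 of 6 MHC class II genes (0) and 0 of 24 interferon response genes (1). Their medians were 0.20, -0.04 and 0.19. The genes with the smallest p were Psmb10, an immunoproteasome subunit (0.73, FDR = 0.084), and Nlrc5, the class I activator (0.54, FDR = 0.18), Ciita, the class II activator (0.88, FDR = 0.12), and the class II chain RT1-Bb (-0.71, FDR = 0.15), and the interferon genes Stat2 (0.56, FDR = 0.076) and Ifih1 (0.44, FDR = 0.18). Without Tat-Cocaine replicate 3, 1 class II gene rose and 1 fell. Against Control, with the Control libraries shared, the median of the class II genes was 3.79 in Tat-Cocaine and 3.60 in Tat-Cocaine-Tazemetostat cultures.

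Neuronal genes were lower with tazemetostat. Of 16 pan-neuronal markers 13 fell and 0 rose (median log2 fold change -0.88), of 9 markers of excitatory neurons 7 fell (-1.21), and of 13 markers of inhibitory neurons 3 fell (-0.82). The share called lower over all genes was 13.4%. The pan-neuronal markers summed to 3019, 3035 and 2467 CPM in Tat-Cocaine and 1585, 1229 and 1758 CPM in Tat-Cocaine-Tazemetostat libraries, and the groups did not overlap. In Tat libraries the sum was 2777, 1716 and 2764 CPM and in Tat-Tazemetostat libraries 2286, 1465 and 3099 CPM, the second replicate being the lowest in each. No neuronal marker was at 0.

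Snap25, a component of the synaptic fusion machinery, fell from 388, 371 and 288 CPM to 126, 83.9 and 145 CPM (-1.58 ± 0.37, FDR = 0.0068). Tubb3, neuronal tubulin, Celf4, an RNA-binding protein, and Rbfox3, which encodes the antigen NeuN, fell by 1.10, 1.37 and 1.03 on the log2 scale (FDR = 0.0081, 0.0086 and 0.012). Neurod2, a transcription factor of excitatory neurons, was at 10.6, 11.4 and 7.53 CPM and 2.56, 2.34 and 2.82 CPM (-1.73 ± 0.36, FDR = 0.0049), and it was called whichever library was left out. Other factors of cortical projection neurons, Neurod6 and Tbr1, had log2 fold changes of -1.80 and -1.14. Of the inhibitory markers, calretinin (Calb2) fell from 42.1, 36.2 and 35.5 CPM to 16.96, 14.5 and 17.6 CPM (-1.19 ± 0.26, FDR = 0.0058), and reelin (Reln) and the GABA transporter Slc32a1 by 0.96 and 0.82 (FDR = 0.025 and 0.040). With Tat-Cocaine replicate 1 left out, limma called 0 of 15 (1 marker failed the filter), 1 of 9 and 1 of 13 markers. The counts were 3, 2 and 2 with Tat-Cocaine replicate 2 left out, and 0, 1 and 0 with Tat-Cocaine-Tazemetostat replicate 2 left out.

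Receptor genes of fast transmission fell. Of 23 genes of glutamate and GABA-A receptors 18 fell and 0 rose, each of the 23 had an unadjusted p under 0.05, and their median was -0.90. Among all genes 13.4% were called lower, and 42.9% had such a p in either direction. The AMPA receptor subunit Gria1 was at 101, 88.4 and 80.2 CPM and 44.9, 36.3 and 51.5 CPM (-1.02 ± 0.26, FDR = 0.0090), and the GABA-A subunit Gabra2 at 51.4, 52.97 and 36.4 CPM and 16.6, 15.3 and 20.9 CPM (-1.38 ± 0.31, FDR = 0.0061). Neither pair of groups overlapped. Gabrb1, another GABA-A subunit, and Grik3, of the kainate receptor, fell by 1.19 and 0.70 on the log2 scale. The receptors D1 and D2 for dopamine, the transmitter whose uptake cocaine blocks, fell as well, Drd1 from 8.17, 6.02 and 6.36 CPM to 3.43, 1.94 and 3.38 CPM (-1.13 ± 0.26, FDR = 0.0067) and Drd2 from 4.77, 2.01 and 2.46 CPM to 0.918, 0.357 and 1.08 CPM (-1.45 ± 0.46, FDR = 0.021). Leaving out Tat-Cocaine replicate 1, 2 of the 23 receptor genes were called and the FDR of Drd1 was 0.057, and without Tat-Cocaine-Tazemetostat replicate 2 the values were 0 and 0.068.

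Of 11 late activity genes 5 fell and 0 rose (median -1.27), where 13.4% of all genes fell. Bdnf, a neurotrophin, was at 24.7, 16.2 and 49.9 CPM and 10.2, 3.31 and 8.79 CPM (-1.94 ± 0.71, FDR = 0.039). Inhba, Nrn1, Pcsk1 and Penk, which encode an activin subunit, neuritin, a prohormone convertase and proenkephalin, had log2 fold changes of -1.40, -1.27, -1.50 and -1.41 (FDR = 0.015, 0.037, 0.038 and 0.041). Of 13 immediate-early genes Npas4 and Fosb fell and Egr1 rose, where 13.4% of all genes fell and 15.2% rose. Npas4, a factor induced by calcium in neurons, was at 2.34, 2.09 and 8.09 CPM and 0.483, 0.255 and 0.564 CPM (-2.11 ± 0.61, FDR = 0.015), and Egr1, which glia also express, at 33.5, 39.4 and 34.6 CPM and 51.99, 59.9 and 53.1 CPM (0.61 ± 0.20, FDR = 0.026). Without Tat-Cocaine replicate 3, the library with the highest Bdnf, Npas4 and Fosb of the 6, the FDR of Bdnf was 0.13 and that of Npas4 0.061. Without Tat-Cocaine replicate 1 or without Tat-Cocaine-Tazemetostat replicate 2, limma called 0 of the 11 late and 0 of the 13 immediate-early genes. With Tat-Cocaine replicate 2 or 3 left out, 1 late gene was called in each fit, and the median of the late genes was -0.68 without replicate 3. The pan-neuronal markers fell beside the receptor and activity genes, with sums of 2467 to 3035 CPM without and 1229 to 1758 CPM with tazemetostat and 0 of 16 at 0, and their part in these falls was not tested.

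**Figure D4:**
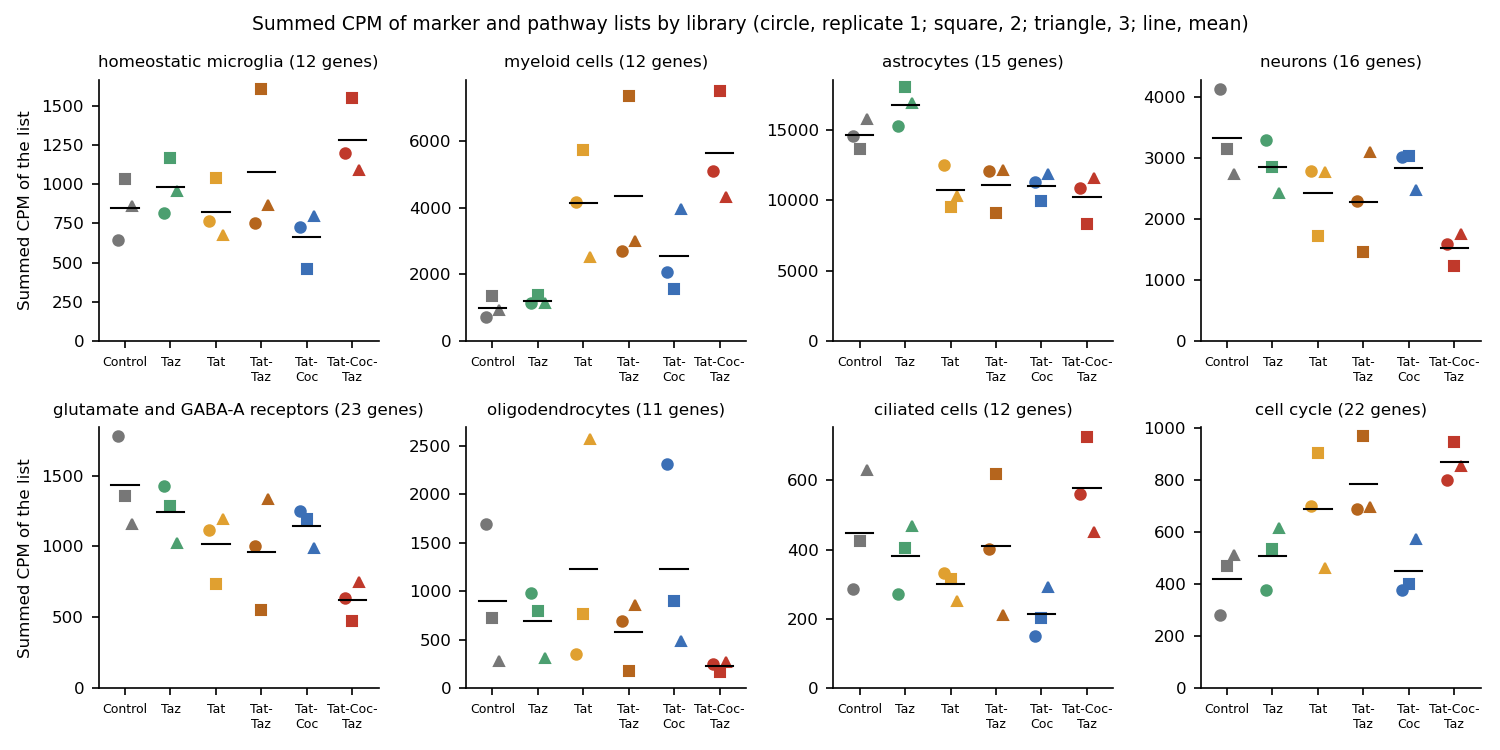
Summed CPM of 8 gene lists in each library of 6 groups on linear axes from 0, 1 symbol per replicate, with the group mean as a line. With tazemetostat added to Tat and cocaine the neuronal sum lies at 1229 to 1758 CPM against 2467 to 3035 CPM without it, and the oligodendrocyte sum ranges from 486 to 2309 CPM within the Tat-Cocaine group.

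Several genes of myelin fell. The largest falls, chosen as the largest rises were, included Cldn11, Mag, F13a1, Gpd1, Mir675, Mgp, Cd163, Ermn and Dcn, of which Cldn11, Mag and Ermn were oligodendrocyte markers. Of 11 such markers 5 fell and 0 rose, where 13.4% of all genes fell, and the median log2 fold change of the 11 was -2.83. The markers varied widely between libraries of 1 group, with sums of 2309, 896 and 486 CPM in Tat-Cocaine, 355, 769.8 and 2571 CPM in Tat, 1694, 729.9 and 280.0 CPM in Control and 246, 164 and 274 CPM in Tat-Cocaine-Tazemetostat libraries. Cldn11, a tight junction protein of myelin, fell from 220.3, 39.2 and 22.3 CPM to 4.40, 0.713 and 5.78 CPM (-4.13 ± 1.29, FDR = 0.020). Mag, an adhesion protein of myelin, fell from 98.6, 29.9 and 9.50 CPM to 2.17, 0.561 and 2.44 CPM (-3.94 ± 1.37, FDR = 0.032). Each Tat-Cocaine-Tazemetostat library lay below each Tat-Cocaine library for both genes. In Control libraries Mag was at 57.2, 28.1 and 2.09 CPM, and replicate 3 lay within the range of the Tat-Cocaine-Tazemetostat libraries. Ermn, an actin-binding protein of oligodendrocytes, and Gpd1, glycerol-3-phosphate dehydrogenase, had log2 fold changes of -2.70 and -3.31 (FDR = 0.045 and 0.035), and Ugt8, which makes a myelin lipid, one of -2.21 (FDR = 0.048).

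Of 6 markers of oligodendrocyte precursors 2 fell (median -0.83), the proteoglycan gene Cspg4 (-1.05, FDR = 0.018) and the lineage factor Olig2 (-0.62, FDR = 0.033). The share called lower over all genes was 13.4%. With any of Tat-Cocaine replicate 1, Tat-Cocaine replicate 2 and Tat-Cocaine-Tazemetostat replicate 2 left out, 0 of the 11 oligodendrocyte and 0 of the 6 precursor markers were called by limma. The FDR of Cldn11 was then 0.14, 0.058 and 0.12.

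The other large falls were in genes of connective tissue and an imprinted locus. Dcn, the matrix proteoglycan decorin, was at 5.24, 12.1 and 2.01 CPM without and 0.290, 0.204 and 0.705 CPM with tazemetostat (-2.69 ± 0.52, FDR = 0.0038), and it was called whichever library was left out. Mgp, matrix Gla protein, fell from 10.05, 21.3 and 3.02 CPM to 1.06, 0.561 and 0.940 CPM (-2.80 ± 0.65, FDR = 0.0064). The row Mir675 fell from 68.6, 53.9 and 8.21 CPM to 3.48, 3.01 and 3.34 CPM (-3.09 ± 1.18, FDR = 0.047), and was at 5.48, 22.4 and 56.6 CPM in Tat and 8.21, 15.98 and 0.499 CPM in Control libraries. Mir675 is the precursor of a microRNA that lies within the imprinted transcript H19. In polyadenylated RNA the row counts reads over the precursor and not the mature microRNA, whose sequences are shown to identify it. They are the RefSeq sequences (GRCr8, minus strand, chr1:207161800-207161821 and chr1:207161766-207161786), with the seed, bases 2 to 8, in capitals, and the seeds of the arms differ.
rno-miR-675-5p: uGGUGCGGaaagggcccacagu
rno-miR-675-3p: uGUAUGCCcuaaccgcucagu
Of the Tat-Cocaine libraries, replicate 3 was the lowest for Mir675, Dcn and Mgp. Without replicate 1 of that group the FDR of Mir675 was 0.19. That of Mgp was 0.056 without Tat-Cocaine-Tazemetostat replicate 2.

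Some markers of astrocytes, vessels and connective tissue were called, where 28.7% of all genes were. Of 15 astrocyte markers 3 fell and 0 rose (median -0.23), among them the glutamate transporter Slc1a2 (-0.59, FDR = 0.031) and the bicarbonate transporter Slc4a4 (-0.48, FDR = 0.047). The summed astrocyte markers overlapped, at 11268, 9959 and 11839 CPM and 10882, 8302 and 11556 CPM. Of 10 markers of mural cells and fibroblasts Dcn and Lum, another proteoglycan, fell and the potassium channel Kcnj8 rose (2.01, FDR = 0.0082). Of 6 endothelial markers tested Eng rose (1.11, FDR = 0.018) and Kdr fell (-0.72, FDR = 0.044), the latter with overlap, and 0 to 3 of the 9 markers in the table were at 0 per library. Of 37 collagen genes 4 fell (Col27a1, Col8a2, Col16a1 and Col9a1, by 0.65 to 1.19 on the log2 scale), and of 17 matrix metalloproteinases and their inhibitors Mmp17 fell (-1.28, FDR = 0.012). Without Tat-Cocaine-Tazemetostat replicate 2, the 3 called astrocyte markers, Eng, Kdr, Kcnj8, the 4 collagens and Mmp17 were not called.

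Genes of motile cilia rose. Of 12 markers of ciliated cells 9 rose and 0 fell (median 1.44), where 15.2% of all genes rose. The sum of the 12 was 150.4, 203 and 293 CPM in Tat-Cocaine and 562, 725 and 450.4 CPM in Tat-Cocaine-Tazemetostat libraries. In Control libraries it was 286, 426 and 631 CPM and in Tat libraries 334, 316 and 251 CPM, and Tat-Cocaine had the lowest mean of the 6 groups. Cfap43, a component of the axoneme, was at 35.1, 46.5 and 69.5 CPM and 168, 214 and 129 CPM (1.77 ± 0.41, FDR = 0.0067). Rsph1, of the radial spokes, Dnai1, of the dynein arms, and Tekt1, a tektin, rose by 1.58, 1.55 and 1.34 (FDR = 0.0061, 0.0073 and 0.010). Of the 12, 0 were called by limma with Tat-Cocaine replicate 1 left out, 6 with Tat-Cocaine replicate 2 and 0 with Tat-Cocaine-Tazemetostat replicate 2.

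Cell cycle genes rose as well. Of 22 genes 14 rose and 0 fell, where 15.2% of all genes rose. All 22 fold changes were above 0, as were 52.0% of those of all genes, and the median of the 22 was 1.18. The sum of the 22 was 377, 400.0 and 575 CPM and 803, 946 and 856 CPM, without overlap, and 699, 903 and 463 CPM in Tat libraries, which overlapped both. The mitotic kinases Aurka and Bub1 and the survivin gene Birc5 rose by 1.09, 1.04 and 1.26 (FDR = 0.018, 0.022 and 0.024), and Pcna, the clamp of DNA polymerases, by 0.44 (FDR = 0.020). In the same libraries the inhibitors Cdkn2a and Cdkn2b rose, and the inhibitors Cdkn1c and Cdkn1b fell. Limma called 0 of the 22 when Tat-Cocaine replicate 1, Tat-Cocaine replicate 2 or Tat-Cocaine-Tazemetostat replicate 2 was left out, and 19 when Tat-Cocaine replicate 3 was.

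**Figure D5:**
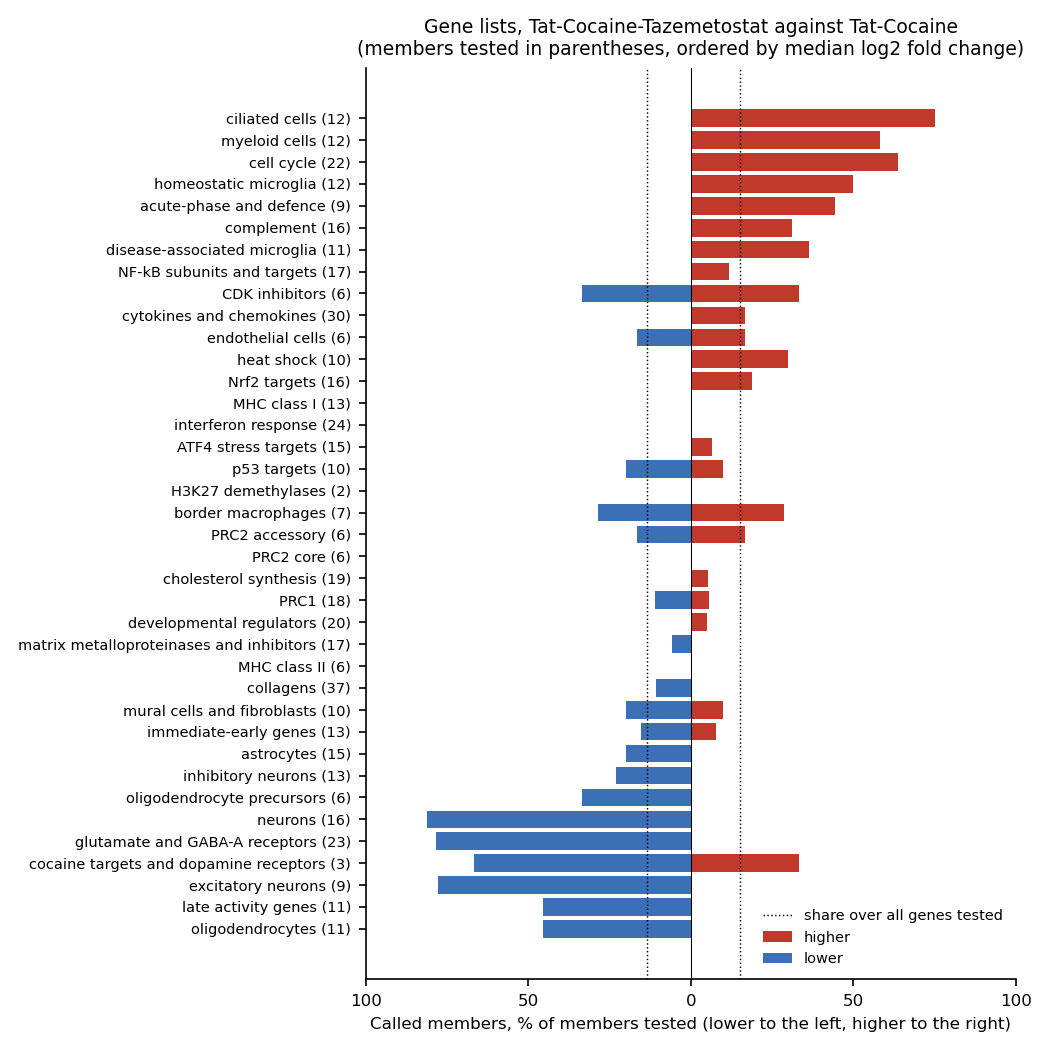
Called members of 38 gene lists as a percentage of the members tested, higher to the right and lower to the left, ordered by the median log2 fold change, with the shares over all tested genes as dotted lines. Ciliated cells, myeloid cells and the cell cycle stand at the top, and oligodendrocytes, late activity genes and excitatory neurons at the bottom.

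Stress and metabolic genes changed in few members. Of 16 Nrf2 targets 3 rose (median 0.22), and Hmox1, heme oxygenase 1, was at 172, 214 and 237 CPM and 381, 499 and 376 CPM (1.01 ± 0.23, FDR = 0.0064). Ftl1 and Abcc1, for ferritin light chain and a drug transporter, were the other two (0.66 and 0.30). Of 10 heat shock genes 3 rose, among them Hspa5, the chaperone of the endoplasmic reticulum (0.84, FDR = 0.015), with Hspa8 and Dnajb1 at 0.26 and 0.22. Sesn2 was the 1 of 15 ATF4 targets that rose (0.39, FDR = 0.043, not called in any of the 6 fits with a library left out). Of 19 genes of cholesterol synthesis and uptake 1 rose. Of 10 p53 targets Tp53inp1 rose (0.62) and Sesn1 and Zmat3 fell by 0.29 and 0.31. These shares lay at or below the 28.7% of all genes, but for the heat shock genes and p53 targets with 3 of 10. Without Tat-Cocaine-Tazemetostat replicate 2, 0 genes of these 5 lists were called by limma.

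The same compound gave no called genes in the other settings. Between Tazemetostat and Control limma called 0 of 15890 genes (0%), with 576 at an unadjusted p under 0.05 and a smallest FDR of 0.598. Between Tat-Tazemetostat and Tat it called 0 genes (0%), with 851 at an unadjusted p under 0.05 and a smallest FDR of 0.0518. The difference between the effect with Tat and cocaine and the effect alone was called for 0 genes (0%, 2187 at an unadjusted p under 0.05, smallest FDR 0.271), and the difference from the effect with Tat for 0 genes (0%, 2373, smallest FDR 0.0565). With precision weights from voom these 4 counts were 0 as well. Single libraries moved some of them, since the last difference was called for 17 genes without Tat-Cocaine replicate 3 and for 6 without Tat-Tazemetostat replicate 2, and the effect with Tat for 6 genes without Tat replicate 3. With replicate as a block the effect with Tat was called for 16 genes. In the fit to all libraries a difference between the effects of tazemetostat in these settings was therefore not shown, although their counts of called genes differ.

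The comparisons alone and with Tat share no library with that after Tat and cocaine, and their values are set side by side. Of the 4554 called genes 79.4% had the same sign alone and 81.5% with Tat, against 66.8% and 64.8% of all genes. For the genes called higher, medians were 0.62 after Tat and cocaine, 0.11 alone and 0.13 beside Tat, and for the genes called lower they were -0.76, -0.12 and -0.11. Over 15890 genes, which are not independent, Pearson's r with the effect alone was 0.417 and with the effect with Tat 0.448 (a description, with no test). Gpnmb had log2 fold changes of 1.28 alone (FDR = 0.60), 1.49 with Tat (FDR = 0.090) and 1.96 with Tat and cocaine, and Lgals3 of 0.75, 0.63 and 0.92. Gpnmb was at 278, 362 and 418 CPM in Control, 625, 787 and 1232 CPM in Tazemetostat, 297, 318 and 256 CPM in Tat and 633, 1221 and 696 CPM in Tat-Tazemetostat libraries, and in each pair the groups did not overlap. Neurod2 had log2 fold changes of -0.23, 0.08 and -1.73, Snap25 of -0.43, -0.29 and -1.58, and Gpr84 of 0.41, 0.10 and 3.03. The medians of the neuronal list were -0.23, -0.14 and -0.88, and those of the myeloid list 0.33, 0.22 and 1.19. With Tat, Jarid2 had a log2 fold change of -0.27 and Aebp2 of 0.33.

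Against Control, Tat-Cocaine cultures had 2372 called genes (14.9%) and Tat-Cocaine-Tazemetostat cultures 7986 (50.3%), the Control libraries being shared. Of 16 neuronal markers 0 were called in Tat-Cocaine (median -0.20) and 16 fell in Tat-Cocaine-Tazemetostat cultures (-1.09), and of 12 myeloid genes 3 and 12 rose (0.74 and 1.83). Groups with and without cocaine may differ in time in culture as well as in cocaine. Between Tat-Cocaine-Tazemetostat and Tat-Tazemetostat limma called 0 genes (0%, 1365 at an unadjusted p under 0.05), and 125 without Tat-Tazemetostat replicate 2. Between Tat-Cocaine and Tat it called 3 genes (0.0189%), Nptx1, Ptpru and Gucy2g, each higher with cocaine. The count was 1 to 5 with a library left out, 5 of them without Tat-Cocaine replicate 3, 16 with replicate as a block, and 0 when only these groups were fitted. Nptx1, a pentraxin of excitatory synapses, stood at 18.4, 11.8 and 23.7 CPM with Tat, at 76.9, 70.6 and 40.99 CPM after cocaine was added and at 15.8, 16.7 and 17.9 CPM with tazemetostat as well. Ptpru, a receptor tyrosine phosphatase, stood at 12.9, 11.7 and 15.1 CPM with Tat, at 21.1, 24.3 and 21.8 CPM after cocaine and at 11.3, 10.1 and 11.9 CPM with tazemetostat. For both genes the Tat-Cocaine libraries were above all others of these 3 groups. Since the Tat-Cocaine libraries enter both comparisons, the rise with cocaine and the fall with tazemetostat of these genes are not independent.

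Among the 123 genes called whichever library was left out, the smallest p of those that rose were found for AC128792.2, LOC100912380, AC128792.1, Commd9 and Gpnmb. The row AC128792.2 was at 44.4, 38.1 and 53.8 CPM and 122, 173 and 131 CPM (1.63 ± 0.22, FDR = 0.00015), and Commd9, a gene of endosomal sorting, at 53.01, 52.1 and 67.2 CPM and 80.6, 92.1 and 81.4 CPM (0.56 ± 0.09, FDR = 0.0010). Those that fell were led by Ptpru, Zfp956, Itgbl1, Gucy2g and Nptx1. Ptpru fell by 0.98 on the log2 scale (FDR = 0.00032), Itgbl1, an integrin beta-like protein, by 1.89 (FDR = 0.0015) and Nptx1 by 1.82 (FDR = 0.0015). These 10 genes were chosen by their p-values after the fits had been seen. Of the 123 genes 96 had the same sign alone and with Tat (78.0%), against 46.6% of all tested genes and 65.5% of the 4554 called.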

How the data were processed

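The authors prepared strand-specific libraries of polyadenylated RNA, aligned paired reads with STAR (2.7.2 in the processing notes) and counted them per gene with featureCounts. The deposited signal is CPM made by the authors after TMM normalization in edgeR, and library sums run from 930399 to 1046890. The authors' fold changes, p-values and FDR in the same table were not used. Sources name more than one genome build, so genes are given by the deposited symbols.

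Within 0.02 read, 85.0 to 87.3% of values were whole reads, so counts were not recovered and limma 3.58.1 (R 4.3.3) stood in for a count test. Values of 48 libraries (16 groups of 3, from the labels) were fitted as log2(CPM + 0.5), with 1 mean per group and an eBayes trend, keeping genes that reached 0.5 CPM in 3 or more libraries. All libraries held 17.5 to 29.1 M reads on genes, and their number limits the precision more than depth does. With 3 libraries against 3, the smallest exact two-sided permutation p is 0.1, so no such test was run.

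The members and gene lists were chosen with earlier results of these data known. Named genes were the 10 largest rises and falls among called genes with a mean of at least 1 CPM in either group and no overlap, the PRC2 genes Ezh2, Ezh1, Eed and Suz12, and up to 4 called genes of each list by p (if none, the 2 of smallest p). Some genes that this rule names are not reported here. Genes named beyond this rule were chosen after their values were seen. They are Cxcl6, C5ar1, Penk, Ugt8, Laptm5, the leading genes of those called in every fit with a library left out, and the genes called between Tat-Cocaine and Tat.

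For Tazemetostat and Control, libraries of the same replicate number deviated together (correlations 0.65, 0.45 and 0.81), and with replicate as a block limma still called 0 genes. The block fitted the same replicate effect in all 16 groups, so that pairing specific to Tazemetostat and Control was not modelled. Alternatives were other pseudocounts, filters, scalings, sample sets, voom weights, the block and each library left out.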

Additional observations from a re-analysis of the deposited data

How the results depend on the processing

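Of the counts of called genes, that for tazemetostat added to Tat and cocaine was 1219 when at least a 2-fold change was asked for and 174 to 5865 with 1 library left out, each fit pooling the spread over groups. The split into higher and lower moved with the scaling, from 2423 and 2131 to 1618 and 2812 with libraries scaled to the same sum, 2169 and 2388 with median ratio scaling and 2279 and 2276 with quantile normalization. With replicate as a block it was 5786 (3142 and 2644). Libraries of the same replicate number had correlations of their deviations of 0.11, 0.02 and -0.23 here. Between Tat-Tazemetostat and Tat replicates 2 and 3 deviated together (0.70 and 0.56) and replicate 1 did not (0.0089). In neither comparison were all 3 correlations over 0.1, so that pairing by number was not assumed. The block did not change the counts of 0 for tazemetostat alone and for its difference from the main effect.

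Tazemetostat alone had 2 called genes with no filter on low values. Tat-Tazemetostat against Tat had 5 with a pseudocount of 1, 3 with median ratio scaling, 2 with quantile normalization, 6 without the trend, 16 with the replicate block and 0 to 6 with a library left out. The difference between the effect with Tat and cocaine and that with Tat had 2 with a pseudocount of 0.1, 1 with at least 2 CPM, 1 with median ratio scaling, 1 with quantile normalization, 3 with libraries scaled to the same sum, 3 without the trend, 2 with the block and 0 to 17 with a library left out. Tat-Cocaine against Control had 619 when only its groups were fitted and 725 with at least a 2-fold change, and Tat-Cocaine-Tazemetostat against Control 2501 with at least a 2-fold change. Tat-Cocaine-Tazemetostat against Tat-Tazemetostat had 1 with no filter and 0 to 125 with a library left out. Tat-Cocaine against Tat had 1 with at least 2 CPM, 0 with only its groups, 16 with the block and 1 to 5 with a library left out. These last 2 comparisons and their alternatives were chosen after seeing the data. The cause of these changes was not tested.

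Over the named genes, with all libraries kept and the other settings changed, 1567 values kept their side of the threshold, 104 lost it, 6 gained it and 0 changed sign. Between 7 and 114 named genes lost their call with a library left out, the fewest without Tat-Cocaine replicate 3 and the most without Tat-Cocaine-Tazemetostat replicate 2.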

Other observations

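Genes of the lysosome, the organelle that breaks down taken-up material, were mostly higher with tazemetostat. Of 48 such genes, a list written after the values of Gpnmb and Ctsd had been seen and given here without a test, 29 rose and 1 fell (Ctsk) in Tat-Cocaine-Tazemetostat against Tat-Cocaine cultures, where 28.7% of all genes were called. Fold changes were above 0 for 39 of the 48, against 52.0% of all genes. In comparisons that share no library with this one, they were above 0 for 41 of 48 with tazemetostat alone (52.1% of all genes) and for 40 of 48 when it was added to Tat (48.1%). The medians were 0.41, 0.21 and 0.13 on the log2 scale.

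Ctsd, the protease cathepsin D, was at 1189, 910.3 and 1208 CPM in Tat-Cocaine and 2214, 2804 and 2353 CPM in Tat-Cocaine-Tazemetostat libraries (log2 fold change 1.16 ± 0.20 (SE), limma FDR = 0.0015). Its libraries did not overlap. Ctsd, the nuclease Dnase2, the peptidase Tpp1 and Grn, the precursor of granulins, were the 4 genes of the list called whichever library was left out. Myeloid markers rose in the same libraries, and their part in these values was not tested.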
